A study of Mus musculus with 6 samples.

Results

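Proliferins are secreted glycoproteins of the prolactin family, also called mitogen-regulated proteins. They are made by trophoblast giant cells of the mouse placenta and by growing mouse cells in culture after serum or growth factors, bind the receptor for insulin-like growth factor 2 and mannose 6-phosphate (Igf2r), act on endothelial cells to promote vessel growth, and have been reported to hold back muscle differentiation in culture. Granzymes D and E are serine proteases of the granules of mouse cytotoxic lymphocytes and lie in a gene cluster with other granzymes and mast cell proteases. The 5 genes described here, the proliferins Prl2c2, Prl2c3 and Prl2c4 and the granzymes Gzmd and Gzme, were taken by symbol from the 25220 genes of the deposited table because they are clustered paralogs that were expressed in cultured myoblasts. They were chosen by their RPKM values in these libraries, with the difference between the genotypes already known, so their values in the groups are given as a description, without a test.

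Poly(A) RNA was measured in 6 libraries from primary myoblasts, the dividing precursors of muscle fibres, grown from mouse hindlimb muscle in Ham's F10 with 10% horse serum, antibiotics and 2.5 ng/mL basic fibroblast growth factor. The 3 control libraries (Ctrl) had the genotype Pax7 +/+; Psat1fl/fl, and the 3 libraries labelled as knockout (Psat1 cKO) had Pax7 CRE+/-;Psat1fl/fl, so both groups carried the floxed alleles of Psat1, an enzyme of serine synthesis, and the Pax7 Cre allele was present in Psat1 cKO alone. Pax7 marks satellite cells and young myoblasts. The labels are silent on Cre induction, on the age of the mice and on whether replicates were separate animals or cultures, and the effects of Cre and of targeting Psat1 cannot be told apart.

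The unit throughout is RPKM, reads per kilobase of transcript and per 1000000 reads, as the authors deposited it, so that levels can be set side by side between genes. Estimated depth, in units of 1000000 reads, was between 33.6 and 43.1 in Ctrl and between 19.6 and 35.1 in Psat1 cKO, where replicate 3 was the shallowest. Psat1 itself read between 91.8 and 100.2 RPKM in Ctrl and between 63.5 and 74.7 RPKM in Psat1 cKO, so most of its RNA was still read. These values cover the whole gene, and none for the deleted part alone is used here, so they do not show how far Psat1 was lost. Xist was read in Ctrl 1, Psat1 cKO 1 and Psat1 cKO 2, and the Y-linked Ddx3y in the other 3 libraries. All 10 myoblast markers were expressed in both groups, with Myod1 between 572 and 780 RPKM, so every library held myoblast RNA. These markers do not show that other cells were absent.

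The members differ in how closely they resemble one another. In GENCODE M21 transcripts, the coding sequences of Prl2c2 and Prl2c3 differ at 3 of 672 positions (99.6% identity), and both are 93.0% or 92.8% identical to Prl2c5, a further proliferin gene. Gzmd and Gzme are 93.5% identical over 758 aligned coding positions, so the granzymes are close relatives and not near-identical copies. The stretches below are 60 coding bases of each transcript. Each was chosen without gaps for the most differences between Prl2c2 and Prl2c3 or between Gzmd and Gzme, so it is not typical. Ties went to the stretch with the most differing positions among the genes shown. Capitals mark the positions that differ among the sequences of one family. The proliferin stretch holds 7 such positions, and Prl2c2 differs from Prl2c3 at 1 of them, the other differences between these copies lying outside it.
Prl2c2, coding bases 306 to 365: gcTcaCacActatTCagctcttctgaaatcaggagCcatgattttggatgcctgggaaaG
Prl2c3, coding bases 306 to 365: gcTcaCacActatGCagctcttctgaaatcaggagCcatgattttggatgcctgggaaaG
Prl2c5, coding bases 315 to 374: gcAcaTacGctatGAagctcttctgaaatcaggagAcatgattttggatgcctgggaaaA
Gzmd, coding bases 142 to 201: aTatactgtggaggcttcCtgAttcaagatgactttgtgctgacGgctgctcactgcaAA
Gzme, coding bases 142 to 201: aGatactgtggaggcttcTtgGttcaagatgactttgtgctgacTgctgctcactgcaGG
The granzyme stretch holds 6 of the 47 coding positions of Gzmd at which Gzme has a different base or no aligned base.

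How far a read could be placed was described by cutting each transcript into all windows of 50, 75 and 100 bases and asking which occurred in a transcript of any other gene. For Prl2c2, 10.5% of 50-base windows, 19.9% of 75-base windows and 33.6% of 100-base windows occurred in no other gene. The shares for Prl2c3 were 21.4%, 30.1% and 37.7%. Most of the remainder was shared between these copies, 80.1% of the 50-base windows of Prl2c2 being found in Prl2c3 as well. No transcript named Prl2c4 was among those searched. Windows shared with it were not counted, and the proliferin shares are upper limits in that respect. The granzymes stood apart from one another far better. For Gzmd 78.1% of 50-base windows and 99.8% of 100-base windows were its own, and for Gzme 79.4% and all of them. Mcpt8, a protease of basophils encoded near Gzme, shared no window at any of the 3 lengths. The read length is not given in the sources used here. Some values in the deposited table were far too small to come from whole reads, with 1743 values above 0 and below 1e-06 RPKM in 793 genes. Prl2c1 had such a value in all 6 libraries and Gzmg in 3, while none of the 5 members had one. How the authors assigned reads that match several copies is not known here. With so much shared sequence, the split of reads between Prl2c2, Prl2c3 and Prl2c4 is uncertain, and their sum is the firmer quantity.

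**Figure D1:**
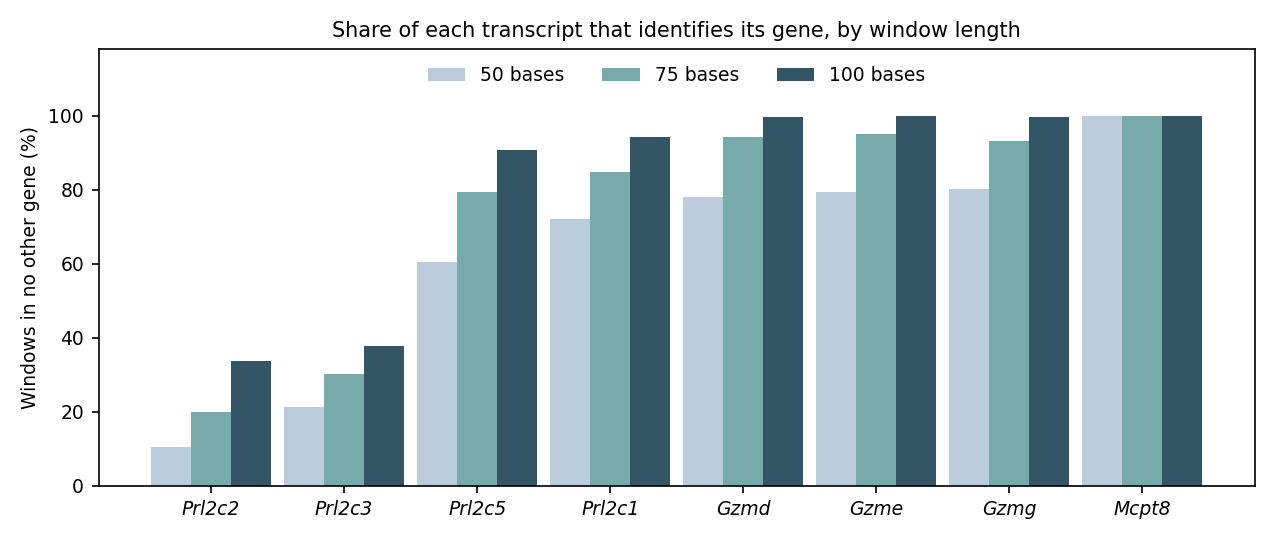
Bars give the percent of windows of 50, 75 or 100 bases along each transcript that occurred in no transcript of another gene (GENCODE M21). Prl2c2 and Prl2c3 lie between 10.5% and 37.7%, whereas Gzmd and Gzme lie at 78.1% or more. No transcript named Prl2c4 was among those searched.

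The proliferins sit on chromosome 13 of GRCm38, the assembly that mm10 names. Prl2c3 (Entrez 18812) spans 12790816 to 12800093 and Prl2c2 (Entrez 18811) spans 12996120 to 13005393, both on the minus strand and 196 kb apart, each with 5 exons. Prl2c5 (13182703 to 13191930) follows 177 kb further on. For Prl2c4 the deposited table has a gene of its own, whereas the RefSeq table used here lists that symbol as a synonym of Prl2c3, so a separate position and sequence for it are not used here. Gzme (Entrez 14942, chromosome 14, 56117619 to 56120625) and Gzmd (Entrez 14941, 56129556 to 56132603) lie on the minus strand 8.93 kb apart, also with 5 exons each. Mcpt8 ends 32.1 kb before Gzme, and Gzmg begins 24 kb after Gzmd.

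Promoter sequences, 250 bases before to 50 after the start of the gene (RefSeq, GRCm38.p6), were on hand for 3 members, Prl2c3, Gzmd and Gzme. They are shown with Prl2c5 and Gzmg, which have similar promoters and far lower levels in these cells. Capitals mark matches to TGANTCA (AP-1, the motif of Fos and Jun factors), TGACGTCA (the cyclic AMP response element, CRE) and TATATAA (a core promoter box), searched on both strands.
Prl2c3, chr13:12800030-12800329, minus strand: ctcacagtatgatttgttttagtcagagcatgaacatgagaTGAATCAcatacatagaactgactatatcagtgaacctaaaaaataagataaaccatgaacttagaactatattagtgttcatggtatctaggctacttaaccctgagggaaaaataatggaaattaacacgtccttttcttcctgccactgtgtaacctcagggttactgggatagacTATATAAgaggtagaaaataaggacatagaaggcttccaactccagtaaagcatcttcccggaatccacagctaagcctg
Prl2c5, chr13:13182466-13182765, plus strand: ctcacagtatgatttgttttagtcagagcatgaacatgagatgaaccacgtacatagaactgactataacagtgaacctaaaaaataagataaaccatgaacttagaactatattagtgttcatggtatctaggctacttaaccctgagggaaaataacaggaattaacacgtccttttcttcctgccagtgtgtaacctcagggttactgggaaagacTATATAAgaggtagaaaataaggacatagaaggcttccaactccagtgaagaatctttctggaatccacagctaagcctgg
Gzmd, chr14:56132544-56132843, minus strand: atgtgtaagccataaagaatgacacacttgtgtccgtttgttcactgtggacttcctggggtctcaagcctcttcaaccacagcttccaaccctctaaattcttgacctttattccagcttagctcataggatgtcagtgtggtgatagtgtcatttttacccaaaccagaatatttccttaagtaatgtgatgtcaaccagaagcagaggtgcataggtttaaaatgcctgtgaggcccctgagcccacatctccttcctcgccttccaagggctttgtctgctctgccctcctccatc
Gzme, chr14:56120576-56120875, minus strand: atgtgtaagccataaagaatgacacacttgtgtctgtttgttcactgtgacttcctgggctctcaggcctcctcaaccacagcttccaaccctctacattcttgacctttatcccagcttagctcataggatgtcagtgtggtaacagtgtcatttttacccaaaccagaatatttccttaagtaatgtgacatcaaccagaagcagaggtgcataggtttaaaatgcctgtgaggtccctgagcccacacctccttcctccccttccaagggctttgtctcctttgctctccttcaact
Gzmg, chr14:56159530-56159829, minus strand: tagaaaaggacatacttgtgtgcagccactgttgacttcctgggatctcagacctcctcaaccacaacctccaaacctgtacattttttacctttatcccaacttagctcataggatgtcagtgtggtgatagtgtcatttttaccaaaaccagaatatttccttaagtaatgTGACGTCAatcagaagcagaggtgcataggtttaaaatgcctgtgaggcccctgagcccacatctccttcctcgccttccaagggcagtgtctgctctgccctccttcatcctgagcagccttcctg
The Prl2c3 promoter is 95.4% identical to that of Prl2c5. Both hold TATATAA, beginning 30 and 31 bases before the start, a motif found in 3.2% of 32851 mouse promoters. Prl2c3 also has the AP-1 match TGAATCA, beginning 209 bases before the start, and 7.8% of all promoters hold such a match. No AP-1 match was found in the Prl2c5 window. As background, the proliferin promoter is a textbook case of a composite element on which AP-1 and the glucocorticoid receptor meet. The position of that element was not looked up here, and the TGAATCA match is not taken for it. The Gzmd and Gzme promoters are 93.4% identical, and neither window holds an AP-1 or a CRE match. Gzmg, at 82.6% identity to Gzmd, holds a CRE beginning 77 bases before the start, and Gzmf and Gzmc hold one at 82 and 57 bases, while 1.8% of all promoters do. None of these matches overlapped another. They describe letters in a window and do not show binding, and CRE was added to the search after the sequences were seen.

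Prl2c3 supplied most of the proliferin signal. It stood at 22.0, 12.0 and 10.3 RPKM in Ctrl 1 to 3 and at 42.8, 76.5 and 71.5 RPKM in Psat1 cKO 1 to 3. Its lowest Psat1 cKO library was 1.95 times its highest control, and Ctrl 1 stood above the other two controls. The means were 14.7 ± 6.32 and 63.6 ± 18.2 RPKM (SD, n = 3 each), and the log2 difference of RPKM + 0.5 was 2.10.

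Prl2c2 showed the widest separation of the 5 genes. Its controls read 3.40, 3.96 and 2.95 RPKM, and its Psat1 cKO libraries 14.6, 29.0 and 29.7 RPKM. Replicate 1 was the lowest of the Psat1 cKO libraries, as it was for Prl2c3, and was still 3.69 times the highest control. Means were 3.44 ± 0.505 against 24.5 ± 8.53 RPKM (SD, n = 3 each), a log2 difference of 2.60.

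Prl2c4 was the lowest of the members. It read 3.14, 1.75 and 2.67 RPKM in Ctrl and 5.42, 8.22 and 6.88 RPKM in Psat1 cKO, again without overlap. The means of 2.52 ± 0.704 and 6.84 ± 1.40 RPKM (SD, n = 3 each) gave a log2 difference of 1.29. By estimated depth and transcript length, the levels of Prl2c3 correspond to between 379 and 1888 reads a library and those of Prl2c2 to between 96 and 704.

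Summed over the 3 genes, proliferin stood at 28.5, 17.7 and 15.9 RPKM in Ctrl and at 62.8, 113.8 and 108.1 RPKM in Psat1 cKO. Each Psat1 cKO library therefore held at least 2.20 times the proliferin RNA of any control. The means were 20.7 ± 6.83 and 94.9 ± 27.9 RPKM (SD, n = 3 each), and the log2 difference of the sum was 2.17. Among libraries with Xist, the sum was 28.5 RPKM in the control against 62.8 and 113.8 RPKM, and among those with Ddx3y it was 17.7 and 15.9 RPKM against 108.1 RPKM.

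Gzme was the higher of the granzymes. It read 75.8, 64.5 and 60.7 RPKM in Ctrl and 93.8, 94.4 and 98.3 RPKM in Psat1 cKO. The Psat1 cKO libraries were tightly grouped and all lay above the controls, the lowest by 1.24 times. Means were 67.0 ± 7.88 and 95.5 ± 2.48 RPKM (SD, n = 3 each), a log2 difference of 0.51.

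Gzmd followed the same order of libraries in Ctrl, at 0.475 to 0.503 of the level of Gzme. Its controls read 38.1, 31.9 and 28.8 RPKM and its Psat1 cKO libraries 52.8, 50.2 and 56.8 RPKM, with the groups apart. The means were 32.9 ± 4.75 and 53.3 ± 3.34 RPKM (SD, n = 3 each), and the log2 difference was 0.69. The sum of both granzymes was 99.96 ± 12.6 RPKM in Ctrl and 148.8 ± 5.62 RPKM in Psat1 cKO (SD, n = 3 each), or 0.58 on the log2 scale. Among libraries with Xist that sum was 114 RPKM in the control against 146.6 and 144.6 RPKM, and among those with Ddx3y it was 96.4 and 89.5 RPKM against 155.2 RPKM.

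**Figure D2:**
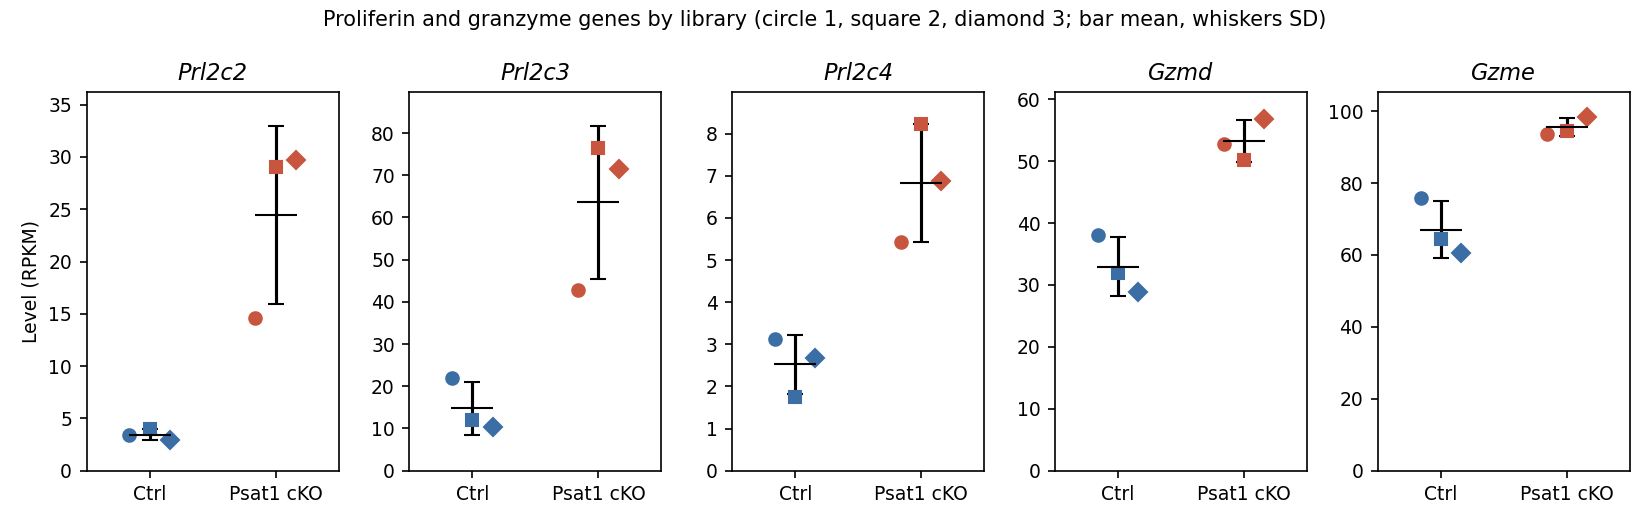
Each panel shows the RPKM of one gene in the 3 Ctrl and 3 Psat1 cKO libraries, with the marker shape giving the replicate, the bar the mean and the whiskers the SD. In all 5 genes every Psat1 cKO library lies above every control, and in the proliferins Psat1 cKO 1 is the lowest of its group.

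All 5 members passed the filter, a mean over the libraries of 0.5 RPKM or more, and all 5 had groups that did not overlap with Psat1 cKO higher. Over the 12251 genes that passed the filter, 10.0% had groups apart in that direction and 20.5% in either direction. The members were chosen for this contrast, so nothing is read from their count. The order of levels in Ctrl was Gzme, Gzmd, Prl2c3, Prl2c2 and Prl2c4, with Prl2c2 and Prl2c4 overlapping in their values. In Psat1 cKO the order by mean was Gzme, Prl2c3, Gzmd, Prl2c2 and Prl2c4, where Prl2c3 (42.8 to 76.5 RPKM) overlapped Gzmd (50.2 to 56.8 RPKM). Among all 25220 genes ranked by RPKM within a library, Prl2c3 moved from between ranks 3241 and 5850 in Ctrl to between 853 and 1600 in Psat1 cKO. Gzme held ranks between 857 and 1106 in Ctrl and between 651 and 692 in Psat1 cKO.

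The shares of the copies were not the same in the groups. Prl2c2 made up 11.9% to 22.4% of the proliferin sum in Ctrl and 23.3% to 27.5% in Psat1 cKO, and Prl2c4 9.93% to 16.8% against 6.36% to 8.64%. Prl2c3 held 64.6% to 77.1% and 66.2% to 68.1%, with overlap. The ratio of Prl2c3 to Prl2c2 was 6.46, 3.02 and 3.48 in Ctrl and 2.93, 2.63 and 2.41 in Psat1 cKO. Given the shared windows, these shares rest on few distinguishing positions and on how shared reads were assigned. Gzmd made up 32.2% to 33.5% of the granzyme sum in Ctrl and 34.7% to 36.6% in Psat1 cKO. The ratio of summed proliferin to summed granzyme RPKM was 0.250, 0.183 and 0.178 in Ctrl and 0.428, 0.787 and 0.696 in Psat1 cKO, with the groups apart.

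**Figure D3:**
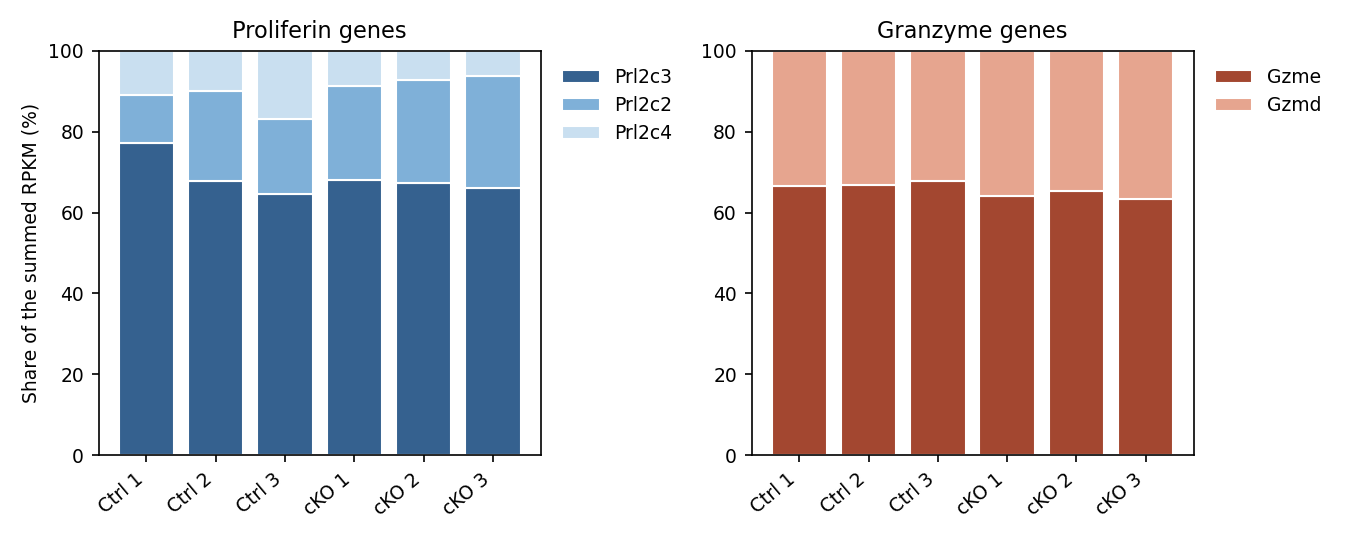
Stacked bars give each gene's percent of the summed RPKM of its family in each library. Prl2c3 holds the largest share of the proliferins in all 6 libraries, and Gzmd stays between 32.2% and 36.6% of the granzyme sum.

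Few relatives of the members were expressed. Of the 24 other prolactin family genes in the table, 21 were below 0.5 RPKM in every library and 7 of these were listed at 0. Prl2c5, the third proliferin of the chromosome 13 group, read 0.535, 0.637 and 0.576 RPKM in Ctrl and 0.596, 1.24 and 1.06 RPKM in Psat1 cKO. Of the 50-base windows of Prl2c5, 60.4% occurred in no other gene and 22.2% occurred in Prl2c2. The part of shared reads in its level was not tested. The groups of Prl2c5 overlapped, and its log2 difference of 0.41 (SE 0.18) did not pass the test (limma, adjusted p = 0.340). Prl3d3, a placental lactogen gene, had a log2 difference of 0.46 and did not pass either. Prl2a1 stayed at or below 0.0397 RPKM, Prl2b1 was listed at 0, and Prl2c1 was below 1e-06 RPKM throughout. For scale, 3 reads in a transcript of 1 kb correspond to between 0.0696 and 0.153 RPKM in these libraries, counting error only.

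In the granzyme cluster, only Gzmd, Gzme and Mcpt8 were above 0.5 RPKM among the 9 genes plotted from Mcpt8 to Gzmb. Mcpt8 was the highest of them, at 150, 141 and 122 RPKM in Ctrl and 154, 173 and 184 RPKM in Psat1 cKO. Its groups lay apart by a factor of 1.03, and the log2 difference of 0.31 (SE 0.09) did not pass the test (limma, adjusted p = 0.180). Gzmf, a further granzyme of the cluster, read 0.0262 to 0.0861 RPKM in Ctrl and 0.128 to 0.272 RPKM in Psat1 cKO, and Gzmc read 0 to 0.0874 RPKM and 0.158 to 0.260 RPKM. Both were too low to be tested. Gzmb, the main cytotoxic granzyme, stayed between 0.0456 and 0.135 RPKM, Gzmg at or below 0.0436 RPKM, Gzmn at or below 0.0909 RPKM and Ctsg, the neutrophil protease cathepsin G, at or below 0.0891 RPKM. Outside the cluster, Gzma and Gzmk were listed at 0, and Gzmm, at 0.393 to 0.781 RPKM, had a log2 difference of -0.11 and did not pass.

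**Figure D4:**
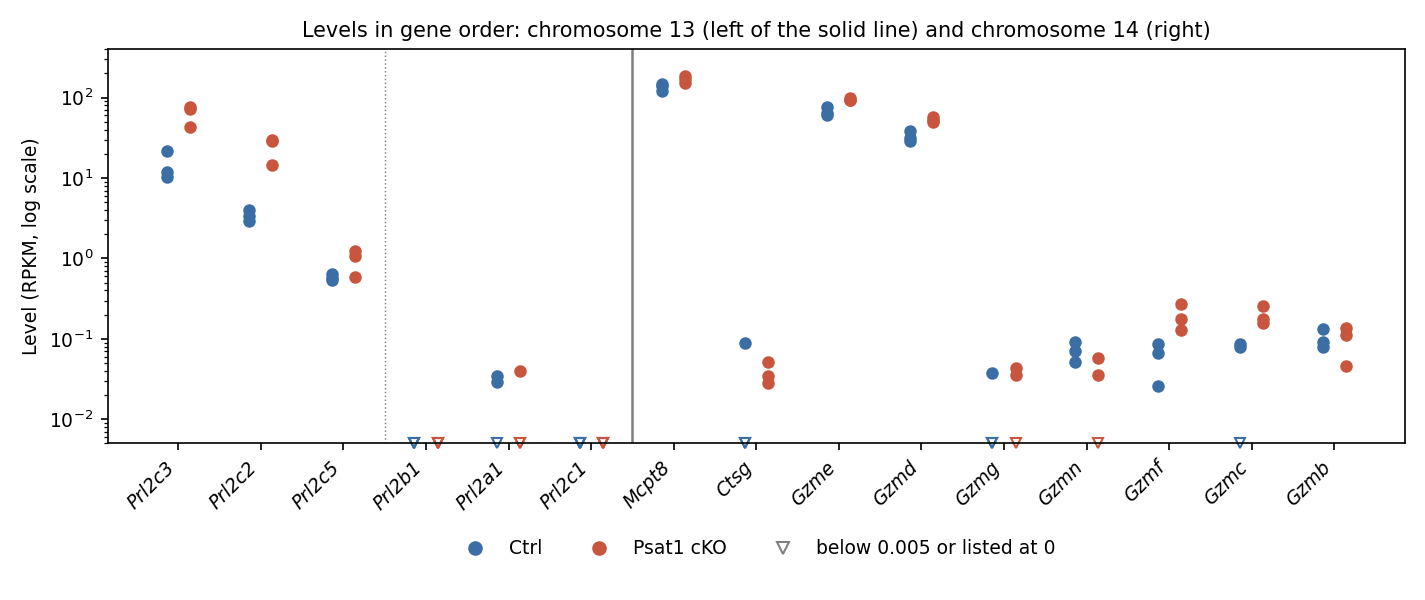
Points give the RPKM of each gene in each library on a log axis, in gene order, with the dotted line marking a gap of 14.2 Mb on chromosome 13 and open triangles marking values below 0.005 or listed at 0. Prl2c3, Prl2c2, Mcpt8, Gzme and Gzmd stand at 2.95 RPKM or more in every library, whereas the other genes are at or below 1.24 RPKM.

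Genes around the clusters were compared with the limma fit over all 12251 tested genes. Of these, 2.29% were called at an adjusted p under 0.05, 1.80% higher and 0.490% lower, and the median log2 difference was -0.01. Within 1 Mb of a member, 44 other genes were tested, 11 around the proliferins and 33 around the granzymes, and 1 of them was called. Nid1, which encodes the basement membrane protein nidogen 1 and begins 246 kb beyond Prl2c5, rose from 24.0 ± 4.23 to 69.7 ± 21.4 RPKM (SD, n = 3 each; limma log2 difference 1.49, SE 0.20, adjusted p = 0.0138). Its call was lost without Ctrl 2 (adjusted p = 0.0593). None of the 44 was called lower by limma. At an unadjusted p under 0.05, 5 were higher, Prl2c5 and Mcpt8 among them, and 2 were lower. The share of all tested genes at that unadjusted threshold is not given here, so nothing is read from these counts.

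Other genes of the pathways were read from 15 lists holding 151 genes, of which 69 were tested, 10 called higher and 3 lower. Over all tested genes, 1.80% were called higher and 0.490% lower. The lists were chosen with earlier results of these data known, so nothing is read from their counts. Of the receptors and signalling genes of proliferin and prolactin, 1 of 8 tested rose, none fell, and the median log2 difference was -0.07. Igf2r, the proliferin receptor, stood at 19.2 ± 0.266 and 19.3 ± 3.63 RPKM (SD, n = 3 each), a log2 difference of -0.01. The prolactin receptor Prlr stayed at or below 0.069 RPKM. Ghr, the growth hormone receptor, rose from 9.26 ± 1.26 to 13.1 ± 0.491 RPKM (log2 difference 0.49, limma adjusted p = 0.0446), and 5 of 6 fits with a library removed lost this call. Stat5b and Stat5a, which carry prolactin and growth hormone signals, had log2 differences of -0.21 and -0.17 and did not pass.

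Of the genes that process, store or inhibit granzymes, 1 of 5 tested rose, with a median log2 difference of 0.35. Ctsh, a cathepsin that can activate granzymes, rose from 23.1 ± 3.88 to 38.2 ± 3.02 RPKM (SD, n = 3 each; log2 difference 0.72, limma adjusted p = 0.0276), and lost its call in 4 of the 6 fits without 1 library. Serpinb6a and Serpinb9b, intracellular serpins, had log2 differences of 0.35 and 1.30 (limma adjusted p = 0.110 and 0.167). Ctsc, the main activator of granzymes, was at or below 0.31 RPKM, and Prf1, the pore-forming perforin, at or below 0.056 RPKM.

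Regulators known from the proliferin promoter were read next. Over all tested genes, 1.80% were called higher and 0.490% lower, and lists this short cannot be set against such shares. Of 9 AP-1 genes tested, 1 rose, none fell, and the median log2 difference was -0.07. Fosl2 rose from 8.97 ± 0.330 to 11.5 ± 0.271 RPKM (SD, n = 3 each; log2 difference 0.34, limma adjusted p = 0.0187), a call lost in 4 of the 6 fits without 1 library, while Atf3 and Jun had log2 differences of -0.32 and -0.13. Of the glucocorticoid receptor and its targets, 0 of 7 passed limma's threshold. At an unadjusted p under 0.05, 2 were higher and 1 lower. With no share over all genes given at that threshold, nothing is read from these counts. Sgk1, Dusp1 and Tsc22d3, all glucocorticoid targets, had log2 differences of 0.36, 0.24 and -0.21.

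Among processes tied to proliferin, 1 of 9 angiogenic factors tested rose, with a median log2 difference of 0.30. Fgf2, the basic fibroblast growth factor, went from 1.46 ± 0.488 to 5.87 ± 0.166 RPKM (SD, n = 3 each; log2 difference 1.73, limma adjusted p = 0.00807) and kept its call whichever single library was removed. Angptl4 and Adm had log2 differences of 0.33 and 0.58 and did not pass. Of 9 inhibitors of myogenic differentiation, 2 rose and 1 fell, with a median of 0.03. Twist1 rose from 1.38 ± 0.441 to 5.62 ± 0.522 RPKM (log2 difference 1.73, limma adjusted p = 0.00807) and kept its call in all 6 fits. Mdfi rose by 0.65 and Snai2 fell by 0.27 on the log2 scale (limma adjusted p = 0.0207 and 0.0367), calls lost in 5 and in 6 of those fits.

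**Figure D5:**
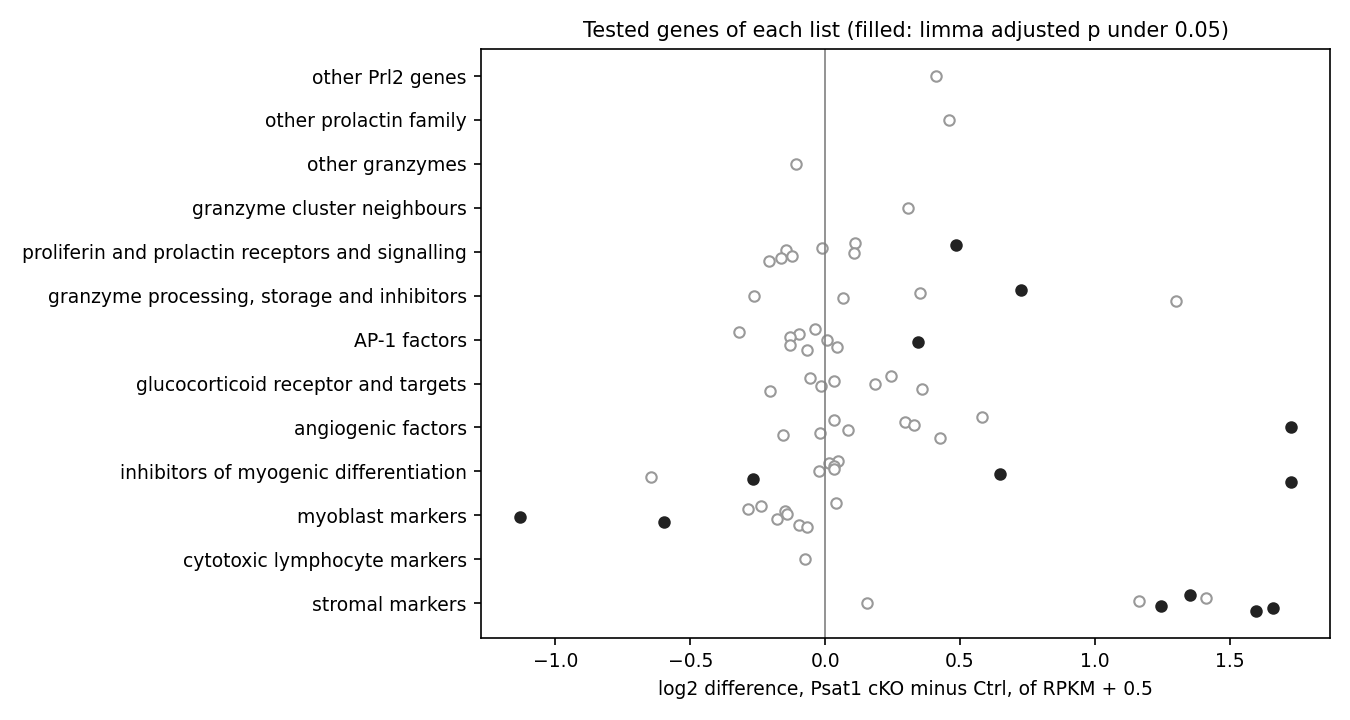
Each circle is a tested gene of a list, placed by its log2 difference (Psat1 cKO minus Ctrl, RPKM + 0.5), and filled circles passed the limma threshold. Lists with no tested gene are left out, and the stromal list, with 4 of 7 genes called higher, lies farthest to the right by its median.

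Listed markers of cytotoxic lymphocytes, mast cells and trophoblast were at or below 0.763 RPKM in every library. No list was read for basophils, the cells named above for Mcpt8. Of 18 cytotoxic lymphocyte markers, 16 were below 0.5 RPKM in every library, the highest value of any was 0.763 RPKM, and Cd2, Nkg7, Gzma and Ncr1 were listed at 0. Their summed level was 1.17 to 1.49 RPKM in Ctrl and 1.16 to 1.93 RPKM in Psat1 cKO. All 8 mast cell markers were at or below 0.109 RPKM, with Cpa3, Mcpt4, Tpsb2 and Fcer1a at 0, and sums of 0.0502 to 0.155 RPKM in Ctrl and 0.0312 to 0.0945 RPKM in Psat1 cKO. All 15 trophoblast markers were at or below 0.307 RPKM, with Tpbpa, Cdx2, Rhox6, Rhox9 and Ctsq at 0, and sums of 0.497 to 0.594 RPKM and 0.471 to 0.843 RPKM. That list holds Prl3d1 but not its relatives Prl3d3 and Prl3d2. These reached 1.18 RPKM in Psat1 cKO 2 and 0.697 RPKM in Psat1 cKO 3.

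Some stromal markers were higher and some myoblast markers lower in the same Psat1 cKO libraries. Of 11 stromal markers 7 were tested and 4 rose, with a median log2 difference of 1.35 and a summed level of 12.9 to 16.1 RPKM in Ctrl against 32.8 to 45.9 RPKM in Psat1 cKO, and Ly6a, with a log2 difference of 0.16, was among the 3 that did not pass. The remaining 4, Apod, Dpt, Lum and Pi16, were below 0.5 RPKM in every library, and Dpt and Pi16 were at 0 in 5 of 6 libraries. Pdgfra rose by 1.66 (limma adjusted p = 0.00934) and kept its call in all 6 fits without 1 library, while Cd34 (1.35), Smoc2 (1.60) and Mfap5 (1.24) lost theirs in 1, 4 and 5 of them. Pdgfra averaged 0.404 RPKM in Ctrl and 2.40 RPKM in Psat1 cKO, so it passed the filter of 0.5 RPKM only through Psat1 cKO. The median of the tested stromal markers depends on that filter. Of 10 myoblast markers, none rose and 2 fell by limma, Pax7 by 0.60 and Myf5 by 1.13 on the log2 scale (adjusted p = 0.00907 and 0.0138). Pax7 also carries the Cre allele in Psat1 cKO alone, so its level cannot be told apart from an effect of that allele on the gene. Myf5 lost its call in 2 of the 6 fits. Their summed level was 1752 to 1968 RPKM in Ctrl and 1480 to 1681 RPKM in Psat1 cKO. Bulk RNA cannot tell apart fewer cells of a type from less RNA per cell, and the part of these markers in the levels of the proliferins and granzymes was not tested.

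The genes whose levels followed those of the families most closely were sought among 9959 genes that averaged 2 RPKM or more, by the root mean square difference of centred log2 values over the 6 libraries. For the proliferin sum these included Serpinb2 (0.291), Igfbp4 (0.294), Efemp1 (0.352) and Inhba (0.354). Serpinb2, an inhibitor of plasminogen activators, read 7.95, 4.16 and 3.28 RPKM in Ctrl and 17.5, 22.7 and 17.2 RPKM in Psat1 cKO, with Ctrl 1 the highest control as for Prl2c3. For the granzyme sum they were Fam171b (0.0619), Klhdc8a (0.063), Itpripl2 (0.078), Ghr (0.0822) and Sqor (0.0851). Likeness over 6 libraries in 2 groups is dominated by the group difference and is given as a description.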

How the data were processed

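Per the labels' protocols, Trizol RNA (500 ng) went into NEBNext Ultra II libraries. Tools named in the submitters' processing notes, without roles, are Partek, TopHat2 2.1.1 and Trim Galore 0.6.6, with mm10 as the build. The authors deposited RPKM values for 25220 genes by a counting method and annotation not given in the sources used here. A second deposited table gives the authors' group means of log2 values and a ratio for each gene, per the file headers. Depth was estimated from the steps between low RPKM values of 2413 single-exon genes, where 41.2% to 47.8% of those values came within 1% of whole reads, against 7.69% to 10% at other depths. Most values were not whole, so no count test was run.

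The 12251 genes averaging 0.5 RPKM or more were fitted with limma 3.58.1 in R 4.3.3 on log2(RPKM + 0.5), with genotype as the term, a variance trend and Benjamini-Hochberg adjustment. Differences on this scale understate those of low genes, and p-values measure the spread between these libraries, which may be technical. The members and gene lists were chosen with earlier results of these data known. Named genes were the members, expressed Prl2 and granzyme relatives, up to 3 tested genes of each other list with the smallest p, called neighbours within 1 Mb and the 5 nearest profiles of each family, of which 1 is not reported here; further called genes, untested markers and receptors were named after their values were seen. Sequences came from GENCODE M21 transcripts and RefSeq promoters of GRCm38, aligned with edlib in Python 3.11.15. The fit was tested on simulated data. Alternatives were pseudocounts of 0.1, 1 and 0.001, TMM scaling, quantile normalization, other filters, a replicate block, the Xist and Y-linked split as a term, no variance trend, array quality weights and each library left out.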

Additional observations from a re-analysis of the deposited data

How the results depend on the processing

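All 93 recomputed differences of the members and their sums kept their sign and moved by less than 1 SD. The groups of every member and both sums did not overlap, so a changed pseudocount or a removed library could not reverse a sign. A replicate block leaves the difference unchanged in this balanced design. These settings are therefore no test of the direction. The log2 difference of the proliferin sum lay between 2.0 and 2.44 over the alternatives (2.01 to 2.44 without 1 library) and that of the granzyme sum between 0.50 and 0.68, and with the Xist and Y-linked split as a term they were 2.10 and 0.54. Counts of called genes changed with the settings. Without the filter on low values, 1 gene was higher and 3 were lower over all genes, 0 and 0 of the listed genes were called, and 0 neighbours were. With 1 library removed at a time (leave-one-out), the higher genes numbered 49 to 173 and the lower genes 12 to 55. The fewest came without Ctrl 2 (54 and 12) and without Psat1 cKO 2 (49 and 12), followed by Psat1 cKO 3 (106 and 35), Ctrl 3 (122 and 37) and, for lower genes alone, Ctrl 1 (29). Of the listed genes 3 to 8 were then higher and 1 to 2 lower, with 3 higher without Ctrl 2, 5 without either of Psat1 cKO 2 and 3, while 1 was lower when Ctrl 2 or Psat1 cKO 2 was missing. Called neighbours numbered 0 without Ctrl 2 and 2 without Psat1 cKO 1. The cause was not tested. With the replicate number as a block, 200 genes were higher and 121 lower, 12 listed genes higher and 2 lower, and 1 neighbour higher. Same-numbered libraries had deviation correlations of 0.2, -0.0338 and 0.174, so they share a number and are not taken as pairs. The depth of Psat1 cKO 3 limits what can be said of low relatives such as Gzmf and Gzmc, and the copies' shared sequence limits the split of the proliferins at any depth.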

Other observations

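The authors' deposited table gave ratios of Psat1 cKO to Ctrl of 6.82 for Prl2c2, 4.42 for Prl2c3, 2.75 for Prl2c4, 1.63 for Gzmd and 1.43 for Gzme. Among the genes nearest in profile to the proliferin sum, Igfbp4, whose product binds insulin-like growth factors, read 6.97, 4.16 and 6.29 RPKM in Ctrl and 21.2, 29.2 and 24.6 RPKM in Psat1 cKO. Inhba, the beta A subunit of activin A, read 6.65, 2.82 and 5.63 RPKM and then 17.0, 23.5 and 20.3 RPKM. These genes were picked for their likeness to the proliferins over the same libraries, so no test is given.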
